A study of Mus musculus with 51 samples.

Results

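The genes described here are the AP-1 transcription factors Fos, Fosb, Fosl1, Fosl2, Jun, Junb, Jund and Batf, together with Atf3, in cells sorted from mouse lung. They were chosen by symbol, and all 9 were found among the 36528 Entrez gene identifiers counted in 51 RNA-seq libraries. Male C57/B6 mice received saline or bleomycin, an agent that injures the lung and leads to fibrosis, into the trachea, and cells were taken at day 14. Each lung was separated by flow cytometry into CD31+ (endothelial), CD45+ (leukocyte) and EpCAM+ (epithelial) cells and a triple-negative fraction that carried none of these 3 surface proteins. The saline groups held 5 libraries in every fraction. The bleomycin groups held 7 libraries in CD31+ and 8 in each of the other fractions. The study had 5 saline and 8 bleomycin mice, so the 4 fractions share animals, but the labels tie no library to an animal. No genetic change is named for any group, and the sources used here do not give the age of the mice.

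AP-1 is a dimer of basic leucine zipper proteins that binds a short palindromic DNA site. FOS family members (Fos, Fosb, Fosl1, Fosl2) need a JUN partner, whereas JUN family members (Jun, Junb, Jund) can also pair with each other. ATF3 and BATF pair with JUN proteins and often act as repressors or in concert with other factors. Fos, Fosb, Jun, Junb and Atf3 are immediate early genes, whose short-lived transcripts are induced within minutes of growth factor, cytokine or stress signals through MAP kinases. Jund is known for a steadier level. Enzymatic dissociation and sorting of a tissue are themselves known to induce these genes. Their level in sorted cells can carry both the state of the cells in the lung and the handling before lysis. In fibrotic lung, Fosl2 is known for a profibrotic role in mouse models.

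Libraries held 15692665 to 36514885 counts, and every member was counted in every library, the lowest count being 5 for Batf. Levels are given as CPM, read counts scaled to effective library sizes set over all 51 libraries. The sorted fractions carried their own markers: the summed CPM of 12 endothelial markers was 16984 to 25426 in CD31+ libraries and at most 1292 elsewhere. The 12 mesenchymal markers reached 32076 to 78216 in the triple-negative fraction. The library Bleomycin_CD45_613 stood apart with 7173 summed mesenchymal CPM, as did Bleomycin_CD31_621 with 9568 summed epithelial CPM. In such bulk libraries, fewer cells of a type and less RNA per cell cannot be told apart.

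The promoter windows of all 8 members that have one are shown. The 6 members that varied together from library to library (Fos, Fosb, Jun, Junb, Jund and Atf3) can so be set beside Fosl2 and Batf. Fosl2 and Batf varied with them less closely, with a Pearson r of at most 0.42 (Fosl2 with Junb). Each line holds the 150 bases before the RefSeq transcription start (GRCm38.p6), written 5′ to 3′ on the gene's strand, with capitals for TGACG on either strand (the core of a cyclic AMP response element, bound by CREB and ATF proteins), TGACNTCA (the full element or its AP-1-like variant, overlapping TGACG where N is G) and TATAAA (the TATA box).
Fos chr12:85473740-85473889 (+): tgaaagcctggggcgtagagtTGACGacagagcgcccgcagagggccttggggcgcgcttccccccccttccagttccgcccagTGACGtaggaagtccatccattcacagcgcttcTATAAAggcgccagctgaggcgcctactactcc
Fosb chr7:19310046-19310195 (-): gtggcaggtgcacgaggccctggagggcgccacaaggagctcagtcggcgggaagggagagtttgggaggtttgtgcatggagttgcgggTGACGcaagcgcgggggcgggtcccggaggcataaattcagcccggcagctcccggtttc
Jun chr4:95052223-95052372 (-): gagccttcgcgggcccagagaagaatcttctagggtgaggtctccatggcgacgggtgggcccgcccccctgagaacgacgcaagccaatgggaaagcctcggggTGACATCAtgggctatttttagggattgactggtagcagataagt
Junb chr8:84978749-84978898 (-): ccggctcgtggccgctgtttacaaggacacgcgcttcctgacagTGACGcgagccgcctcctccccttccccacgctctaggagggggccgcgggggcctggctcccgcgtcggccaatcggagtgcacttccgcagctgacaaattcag
Jund chr8:70697589-70697738 (+): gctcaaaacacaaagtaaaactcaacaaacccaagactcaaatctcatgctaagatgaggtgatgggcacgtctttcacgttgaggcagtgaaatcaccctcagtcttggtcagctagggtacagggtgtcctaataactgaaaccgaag
Atf3 chr1:191183334-191183483 (-): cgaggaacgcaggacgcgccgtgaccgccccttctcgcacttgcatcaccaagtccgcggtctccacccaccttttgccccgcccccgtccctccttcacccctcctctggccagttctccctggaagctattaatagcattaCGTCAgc
Fosl2 chr5:32136322-32136471 (+): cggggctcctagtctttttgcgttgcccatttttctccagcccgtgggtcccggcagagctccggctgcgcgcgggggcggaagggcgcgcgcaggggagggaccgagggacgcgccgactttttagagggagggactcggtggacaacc
Batf chr12:85686570-85686719 (+): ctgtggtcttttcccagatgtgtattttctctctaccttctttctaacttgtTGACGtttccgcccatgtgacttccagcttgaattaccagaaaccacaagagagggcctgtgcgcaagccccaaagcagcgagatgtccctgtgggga
The Fos window held TGACG at 129 and 66 bases and TATAAA at 33 bases before the start. A TGACG began 60 bases before the start of Fosb and 106 before that of Junb, and its reverse, CGTCA, 7 bases before that of Atf3. Jun held TGACATCA, the AP-1-like variant, 45 bases before its start, Batf, outside the group that varied together, held TGACG at 98 bases, and the windows of Jund, inside it, and Fosl2, outside it, held none of the motifs. Among 32851 mouse promoter windows of this length, TGACG on either strand was present in 13.3%, TGACNTCA in 5.7% and TATAAA in 7.57%. The AP-1 site TGANTCA, held by 4.24% of all windows, and the CArG box, held by 0.916%, were not in the windows of the 8 members that have one. These matches are a description of the letters only. Other annotated starts were not searched, so the lack of motifs for Jund and Fosl2 holds for the RefSeq start only. The Fosb window overlaps the gene's own span, chr7:19302696-19310118, so the start used for it, and its match, lie within that span.

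In saline lungs the triple-negative fraction held the highest mean level of 7 of the 9 members, all but Fosl2 and Batf. Compared per length of exon (RPKM), the order there was Fos at 2233 ± 340.2 (SD, n = 5), Junb at 1409 ± 287, Jun at 1021 ± 80.7, Fosb at 850.0 ± 72, Jund at 727 ± 99.3 and Atf3 at 525 ± 95.8. Fosl2 at 65.1 ± 9.96, Fosl1 at 9.66 ± 2.93 and Batf at 0.501 ± 0.339 RPKM were far lower. Exon lengths were those of GENCODE, while the annotation behind the counts is not named. The order of close members, such as Jund (1668 bases) and Atf3 (2154 bases), may depend on that length. Together the 9 genes took 1.63 to 2.05% of all counts in the saline triple-negative libraries, against 0.917 to 1% in CD45+, 0.594 to 0.909% in CD31+ and 0.597 to 1% in EpCAM+ libraries.

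The members differed in which fraction carried them. Over the 54 saline comparisons of 9 members in 6 pairs of fractions, 33 differed (edgeR's quasi-likelihood test across all 8 groups, Benjamini-Hochberg adjusted p under 0.05). Of the 9 members, 5, 4, 7, 4, 6 and 7 differed for CD31+ with CD45+, CD31+ with EpCAM+, CD31+ with triple-negative, CD45+ with EpCAM+, CD45+ with triple-negative and EpCAM+ with triple-negative cells, where 72.5, 72.8, 67.7, 78.4, 79 and 73.1% of all genes differed. Fos was 5251 ± 800.0 CPM in triple-negative cells and 1827 ± 422 CPM in the next fraction, EpCAM+ (log2 difference 1.52 ± 0.23, adjusted p = 9.12e-08), while CD45+ cells differed from neither EpCAM+ nor CD31+ cells beyond the spread and CD31+ cells were below EpCAM+ cells (-0.70 ± 0.23, adjusted p = 0.00552). Fosb (1.91 ± 0.34, adjusted p = 3.27e-06, over EpCAM+), Fosl1 (1.25 ± 0.24, adjusted p = 9.39e-06, over CD31+) and Atf3 (0.77 ± 0.30, adjusted p = 0.022, over EpCAM+) also had the triple-negative fraction ahead, and none of the 3 pairs among the other fractions was separated. The Atf3 difference missed the threshold without Saline_EpCAM_655 (adjusted p = 0.0612). Jun instead was high in 3 fractions and low in leukocytes, at 638.003 ± 136 CPM against 2812 ± 523 CPM in EpCAM+ cells (2.14 ± 0.22, adjusted p = 1.66e-12). Junb and Fosl2 were shared by triple-negative and CD45+ cells: Fosl2 was 771 ± 141 CPM in CD45+ and 630.1 ± 96.4 CPM in triple-negative cells, against 127 ± 37.9 CPM in CD31+ cells (2.32 ± 0.19, adjusted p = 2.92e-15). Junb was 3243 ± 659.6 CPM in triple-negative and 2872 ± 383 CPM in CD45+ cells, above CD31+ (1.29 ± 0.21, adjusted p = 3.55e-07). CD31+ was in turn above EpCAM+ (0.63 ± 0.21, adjusted p = 0.00568). Jund was lower in CD31+ cells than in CD45+ (-0.85 ± 0.17, adjusted p = 1.79e-05), EpCAM+ (-1.05 ± 0.17, adjusted p = 3.99e-07) and triple-negative cells (-1.14 ± 0.17, adjusted p = 8.13e-08), and the other 3 fractions were not separated. Batf, which is known for its role in T and B lymphocytes and dendritic cells, was 26 ± 3.54 CPM in CD45+ cells, 7.88 ± 0.815 CPM in EpCAM+ cells (1.72 ± 0.23, adjusted p = 6.13e-09) and at most 1.48 CPM in the saline CD31+ and triple-negative libraries.

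**Figure D1:**
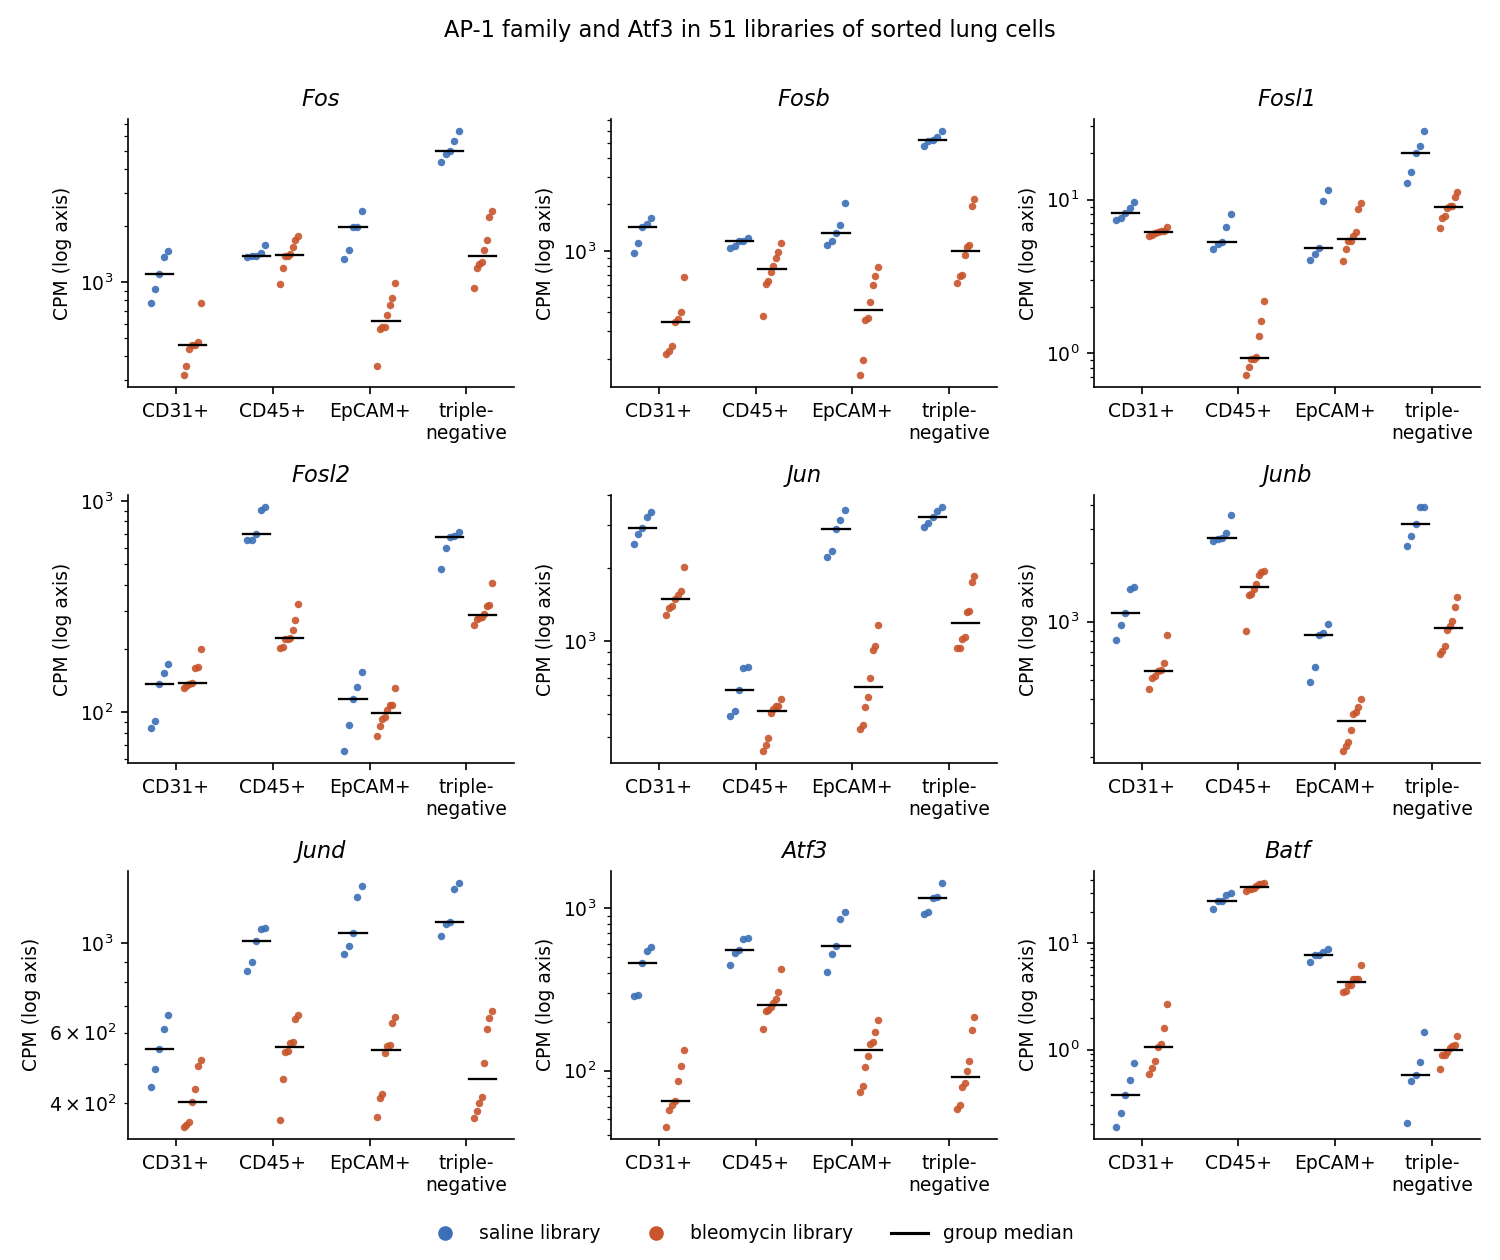
Level of each member in each of the 51 libraries, in CPM on a logarithmic axis, by sorted fraction. Blue points are saline libraries, orange points bleomycin libraries and black lines group medians; in triple-negative cells all 5 saline points lie above all 8 bleomycin points for every member except Batf.

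At day 14 after bleomycin most members were lower in each of the 4 fractions. Of the 36 combinations of 9 members and 4 fractions, 29 fell, 2 rose and 5 did not pass the test (edgeR's quasi-likelihood test within each fraction, Benjamini-Hochberg adjusted p under 0.05). Fosb, Jun, Junb, Jund and Atf3 fell in every fraction, Fos in all but CD45+ and Fosl1 in all but EpCAM+ cells. The CD45+ calls of Fosb and Jun were lost under several alternatives. Changes in either direction were called for 8, 8, 7 and 8 of the 9 members in CD31+, CD45+, EpCAM+ and triple-negative cells, where 48.8, 55.3, 60.2 and 55.4% of all genes tested were called. The count was 7 of 9 lower in CD31+ cells, where 24.6% of all genes tested were lower, 7 of 9 in CD45+ cells (background 26.8%), 7 of 9 in EpCAM+ cells (background 28.9%) and 8 of 9 in triple-negative cells (background 27.7%). Batf alone among the members was higher in CD31+ and in CD45+ cells, beside backgrounds of 24.2% and 28.4% higher, and no member was higher in EpCAM+ or triple-negative cells, where 31.2 and 27.7% of all genes were. The median log2 change of the 9 was -0.98 in CD31+, -0.81 in CD45+, -1.33 in EpCAM+ and -1.33 in triple-negative cells, where the median over all genes tested lay between -0.006 and 0.016. Without Bleomycin_CD31_621 the count in CD31+ cells was still 7 lower and 1 higher, and without Bleomycin_CD45_613 that in CD45+ cells was 7 lower and 1 higher. The Fosl1 change in CD45+ cells was then -2.50 and the Batf change in CD31+ cells 1.17. The groups did not overlap at all, with every bleomycin library below every saline library, for 5 members in CD31+, 5 in CD45+, 7 in EpCAM+ and 8 in triple-negative cells. Over all genes tested this held for 12, 15.7, 17.6 and 15.4%. The share of all counts taken by the 9 genes was 0.381 to 0.853% in bleomycin triple-negative libraries, 0.378 to 0.675% in CD45+, 0.302 to 0.511% in CD31+ and 0.188 to 0.438% in EpCAM+ libraries, below the saline range of the same fraction in each case.

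**Figure D2:**
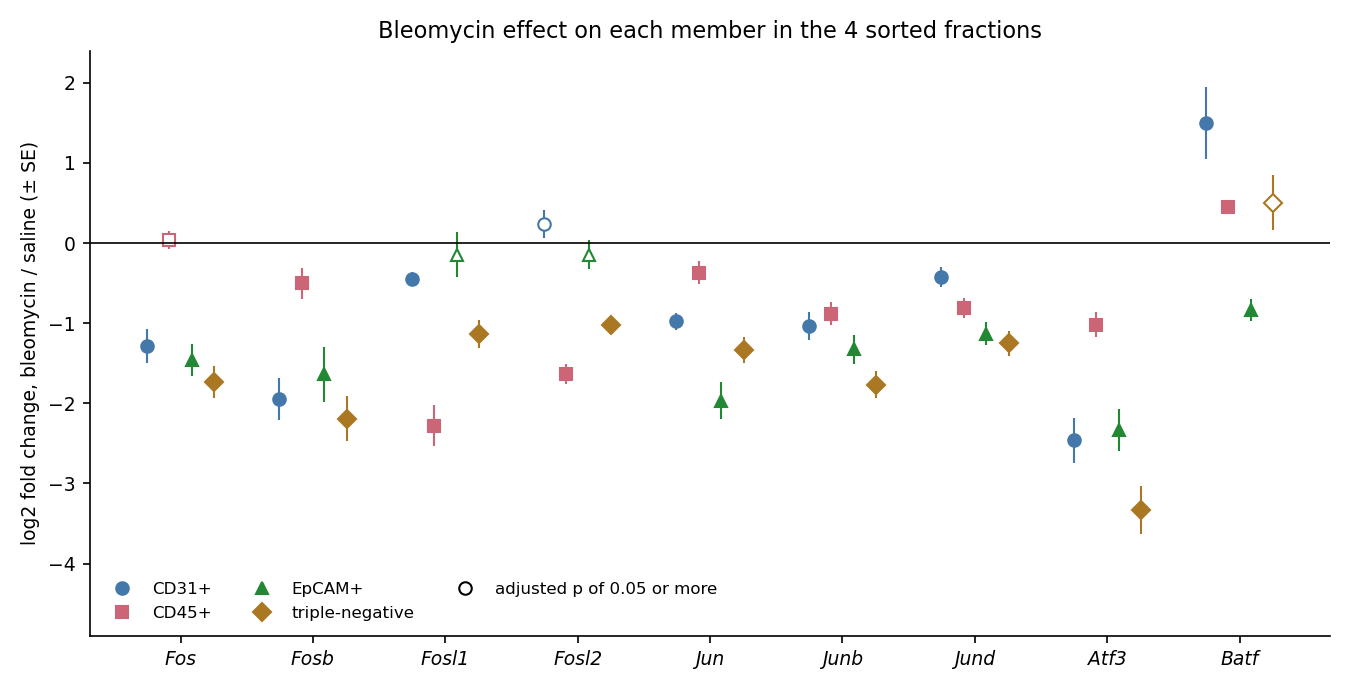
Log2 fold change of each member, bleomycin over saline, with its standard error, in CD31+ (blue circles), CD45+ (red squares), EpCAM+ (green triangles) and triple-negative cells (brown diamonds). Open symbols did not reach an adjusted p under 0.05; most symbols lie below 0, Atf3 lies lowest in 3 fractions, and Batf is the member above 0 with a filled symbol.

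Fos, the founding FOS family member, was 4378, 4803, 4996, 5659.7 and 6419.6 CPM in the 5 saline triple-negative libraries, and the 8 bleomycin libraries ran from 926 to 2406 CPM with a median of 1385. The groups did not overlap, and Fos fell 3.33-fold (log2 -1.74 ± 0.20 SE, adjusted p = 8.22e-06). In EpCAM+ cells the saline values were 1333, 1485, 1959.5, 1972 and 2387 CPM and the bleomycin values ran from 357 to 993 CPM with a median of 620.4. In CD31+ cells they were 776, 922, 1108, 1364 and 1465 CPM, and bleomycin libraries ran from 318 to 776 CPM with a median of 459. Neither pair of groups overlapped, although in CD31+ cells the highest bleomycin library, Bleomycin_CD31_626, came within a fraction of a CPM of the lowest saline library, Saline_CD31_653. The log2 changes were -1.46 ± 0.20 (adjusted p = 2.47e-05) and -1.28 ± 0.21 (adjusted p = 0.000342). Leukocytes were the exception. The saline CD45+ values were tightly grouped at 1363, 1374, 1385, 1429 and 1580.2 CPM, bleomycin libraries ran from 978 to 1756 CPM with a median of 1399, and the saline values lay inside the bleomycin range, with a log2 change of 0.039 ± 0.12 (adjusted p = 0.798).

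Fosb, which forms AP-1 with JUN proteins much as Fos does and is known for a truncated isoform that gene counts cannot resolve, followed Fos where Fos fell. Its saline triple-negative values were 4759, 5161, 5179, 5458 and 5975 CPM and its bleomycin values ran from 617.043 to 2168 CPM with a median of 993. The groups were apart, and Fosb fell 4.56-fold (-2.19 ± 0.28, adjusted p = 2.29e-05). It also fell in CD31+ cells, from 973–1633 CPM to 215–672 CPM (-1.94 ± 0.26, adjusted p = 9.5e-05), and in EpCAM+ cells, from 1082–2031 CPM to 157–789.9 CPM (-1.64 ± 0.34, adjusted p = 0.00105). In CD45+ cells the fall was small, with overlapping values of 1047–1208 CPM in saline and 376–1116 CPM in bleomycin libraries (-0.50 ± 0.19, adjusted p = 0.041). That call was lost when any of 8 of the 13 CD45+ libraries was left out (adjusted p from 0.0574 to 0.0799), namely Bleomycin_CD45_614, Bleomycin_CD45_615, Bleomycin_CD45_617, Saline_CD45_644, Saline_CD45_645, Saline_CD45_646, Saline_CD45_647 and Saline_CD45_648.

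The Fos-related antigens Fosl1 (FRA-1) and Fosl2 (FRA-2), which lack the transactivation domain of FOS, had another pattern. Their largest falls were in leukocytes, where Fos did not pass the test. Fosl2 was 652.2, 656.6, 696, 910.1 and 938 CPM in the saline CD45+ libraries and ran from 201 to 325 CPM with a median of 224 after bleomycin, every bleomycin library lying well below every saline library. It fell 3.11-fold (-1.64 ± 0.13, adjusted p = 1.12e-07). In triple-negative cells Fosl2 fell from 475–716 CPM to 259–409.9 CPM without overlap (-1.03 ± 0.11, adjusted p = 4.46e-06). In CD31+ and EpCAM+ cells, where it started low, it was 83.9–169 against 129.9–198 CPM (0.24 ± 0.18, adjusted p = 0.284) and 65.5–155 against 77.4–130.4 CPM (-0.14 ± 0.18, adjusted p = 0.495), and the groups overlapped in both.

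Fosl1 was scarce throughout, with counts of 18 to 880 per library. Its saline CD45+ values were 4.74, 5.11, 5.28, 6.64 and 8.03 CPM and the bleomycin values ran from 0.723 to 2.2 CPM with a median of 0.939. The groups did not overlap, and Fosl1 fell 4.86-fold (-2.28 ± 0.26, adjusted p = 3.85e-06). It fell from 12.9–27.9 to 6.54–11.2 CPM in triple-negative cells (-1.14 ± 0.17, adjusted p = 7.33e-05) and from 7.32–9.59 to 5.78–6.65 CPM in CD31+ cells (-0.45 ± 0.089, adjusted p = 0.0011), again without overlap. The CD31+ change did not pass the test in either block of the table's columns alone. In EpCAM+ cells both groups spread widely, 4.03–11.5 and 3.99–9.49 CPM (-0.14 ± 0.28, adjusted p = 0.673). Fosl1 lies at chr19:5447698-5455938 (GRCm38) and overlaps Ccdc85b on the opposite strand, and since the sources used here do not name the strand setting of the counting, reads of both cannot be told apart with certainty.

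Jun, the gene of the core JUN protein that carries the phosphorylation sites of JNK kinases, had its largest fall in epithelial cells. The EpCAM+ effect was not separated from the triple-negative one (-0.62 ± 0.26, adjusted p = 0.0699, edgeR's contrast of the 2 effects). Jun was 2227, 2346, 2883, 3141 and 3461 CPM in the saline EpCAM+ libraries. After bleomycin it ran from 432 to 1166 CPM with a median of 644.030. Every bleomycin library was far below every saline library, and Jun fell 3.9-fold (-1.97 ± 0.23, adjusted p = 7.02e-06). The falls were from 2959–3575 to 933–1853 CPM in triple-negative cells (-1.33 ± 0.17, adjusted p = 1.41e-05) and from 2508–3399 to 1274–2014 CPM in CD31+ cells (-0.98 ± 0.11, adjusted p = 1.59e-05), both without overlap. In CD45+ cells, where Jun was lowest, the ranges 492–783 and 352–577 CPM overlapped (-0.37 ± 0.15, adjusted p = 0.043). This call was lost without any of 6 libraries (adjusted p from 0.0572 to 0.127), namely Bleomycin_CD45_612, Bleomycin_CD45_614, Bleomycin_CD45_615, Saline_CD45_644, Saline_CD45_645 and Saline_CD45_648. The log2 change was -0.14 (adjusted p = 0.611) with a score of endothelial markers as covariate. These markers summed to 449 to 1166 CPM in saline and 257 to 487 CPM in bleomycin CD45+ libraries. Because they moved with treatment, the fit cannot separate them from the bleomycin effect. With the block of table columns as covariate the Jun change was -0.38 (adjusted p = 0.0517), and in the first block alone -0.074 (adjusted p = 0.763).

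Junb, known as an antagonist of Jun at some promoters, was 2449, 2764, 3189, 3893 and 3918 CPM in the saline triple-negative libraries and ran from 681 to 1343 CPM with a median of 928 after bleomycin. No bleomycin library reached the saline range, and Junb fell 3.4-fold (-1.77 ± 0.17, adjusted p = 1.62e-06). It fell from 488–974 to 215–400.3 CPM in EpCAM+ cells (-1.33 ± 0.18, adjusted p = 2.99e-05) and from 2604–3534 to 899–1827 CPM in CD45+ cells (-0.88 ± 0.14, adjusted p = 0.000103). In CD31+ cells Bleomycin_CD31_626, at 859 CPM, lay within the saline range of 809–1516 CPM, and the change was -1.03 ± 0.18 (adjusted p = 0.000439). Jund, the member with the steadiest level in most tissues, fell in all fractions too: it fell by 1.25 ± 0.16 in triple-negative cells (1039.9–1414 to 369–678 CPM, adjusted p = 1.69e-05), 1.13 ± 0.14 in EpCAM+ cells (adjusted p = 7.2e-06) and 0.81 ± 0.12 in CD45+ cells (adjusted p = 5.77e-05) on the log2 scale. Its smallest fall was in CD31+ cells, where the ranges 439–662.4 and 349.9–511 CPM overlapped (-0.42 ± 0.12, adjusted p = 0.0121). With a score of leukocyte markers as covariate that change was -0.29 (adjusted p = 0.217). These markers moved with treatment in CD31+ libraries, so the fit cannot separate them from the bleomycin effect. Jun overlaps the antisense RNA Junos, Junb overlaps Prdx2, Jund overlaps Gm11175 and Atf3 overlaps Gm24748, each on the opposite strand, with the same limit as for Fosl1.

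Atf3, a stress-induced bZIP factor that represses inflammatory genes in macrophages, had the largest fall of the family in 3 of the 4 fractions. In triple-negative cells it was 928, 950.3, 1157, 1179 and 1436 CPM in saline libraries and ran from 57.7 to 213 CPM with a median of 91.5 after bleomycin. All 8 bleomycin libraries were far below the lowest saline value, and Atf3 fell 10.1-fold (-3.33 ± 0.30, adjusted p = 1.36e-06). In CD31+ cells the saline values were 289.5, 293, 459, 543 and 574 CPM, the bleomycin values ran from 45 to 134 CPM with a median of 65.3, and the fall was 5.52-fold (-2.46 ± 0.28, adjusted p = 2.42e-05). In EpCAM+ cells the saline values were 404, 525, 589, 856 and 948 CPM and the bleomycin values ran from 73.7 to 204 CPM with a median of 134 (5.05-fold, -2.33 ± 0.26, adjusted p = 4.56e-06). The groups were apart in both. In CD45+ cells saline values were 446, 527, 553, 647.7 and 656.039 CPM, bleomycin values ran from 181 to 419.7 CPM with a median of 254, and the highest bleomycin library, Bleomycin_CD45_619, lay just under the lowest saline library (-1.02 ± 0.16, adjusted p = 8.98e-05).

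Batf moved apart from the rest. In CD45+ cells it was 21.1, 25, 25.3, 28.6 and 30.2 CPM in saline libraries and ran from 31.4 to 37.4 CPM with a median of 34.4 after bleomycin. Every bleomycin library was above every saline library, which held for 15.8% of all genes, and Batf rose 1.37-fold (0.45 ± 0.085, adjusted p = 0.000385). In EpCAM+ cells it fell from 6.74, 7.72, 7.72, 8.26 and 8.95 CPM to values that ran from 3.52 to 6.33 CPM with a median of 4.34 (-0.83 ± 0.14, adjusted p = 7.31e-05), without overlap. In CD31+ cells the level was low, 0.187, 0.251, 0.373, 0.519 and 0.753 CPM in saline libraries, from 5 to 22 counts, and from 0.593 to 2.7 CPM with a median of 1.06 after bleomycin. The ranges overlapped and the highest value was that of Bleomycin_CD31_621; the rise was 1.499 ± 0.45 (adjusted p = 0.0147). It was 1.17 to 1.83 when single libraries were left out. The summed leukocyte markers moved in the same direction there, from 196 to 267 CPM in saline to 261 to 756 CPM in bleomycin libraries. Beside 24.2% of all genes tested, 9 of 12 of these markers were higher. With their score as covariate the Batf change was 0.55 (adjusted p = 0.441). Because that score moved with treatment, the fit cannot separate it from the bleomycin effect. In triple-negative cells Batf was 0.204–1.48 and 0.652–1.33 CPM (0.50 ± 0.34, adjusted p = 0.225).

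The size of the bleomycin effect differed between fractions for all 9 members (edgeR's F test over the interaction terms, adjusted p from 1.89e-09 for Fosl2 to 0.0155 for Junb), as it did for 64.3% of all genes. The CD45+ effect differed from that in EpCAM+ cells for 7 members (background 38.8%), from that in triple-negative cells for 7 (background 37.4%) and from that in CD31+ cells for 6 (background 38.2%). For Fos the CD45+ effect lay above the triple-negative one (1.74 ± 0.29, adjusted p = 3.67e-06), and so did that for Atf3 (2.28 ± 0.39, adjusted p = 6.53e-06). Fosl1 and Fosl2 went the other way, with the CD45+ effect below that in EpCAM+ cells (-2.19 ± 0.33, adjusted p = 4.51e-07 for Fosl1 and -1.53 ± 0.23, adjusted p = 4.47e-07 for Fosl2) and below that in triple-negative cells (-1.18 ± 0.32, adjusted p = 0.00294 and -0.64 ± 0.23, adjusted p = 0.0236). Pairs without CD45+ differed for fewer members: 4 between EpCAM+ and triple-negative cells (Fosl1, Fosl2, Atf3 and Batf, background 31.3%), 3 between CD31+ and EpCAM+ (Jun, Jund and Batf, background 26.6%) and 3 between CD31+ and triple-negative cells (Fosl2, Junb and Jund, background 25.3%).

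These unequal effects changed the order of the fractions by mean level. After bleomycin, Fos was 1556 ± 522 CPM in triple-negative and 1415 ± 252 CPM in CD45+ cells (SD, n = 8 each), which no longer differed beyond the spread (0.14 ± 0.18, adjusted p = 0.483). CD45+ cells were above EpCAM+ cells (1.096 ± 0.18, adjusted p = 4.08e-07), and EpCAM+ cells were below triple-negative cells (-1.23 ± 0.18, adjusted p = 4.02e-08). Atf3 and Junb now had their highest level in leukocytes, Atf3 at 269.8 ± 70.7 CPM over 131 ± 44.8 CPM in EpCAM+ cells (1.04 ± 0.24, adjusted p = 0.000141) and Junb at 1508 ± 305 CPM over 941 ± 237 CPM in triple-negative cells (0.68 ± 0.16, adjusted p = 0.000206). Fosl2 passed the other way, to 305 ± 47.2 CPM in triple-negative over 239.8 ± 41.4 CPM in CD45+ cells (0.35 ± 0.14, adjusted p = 0.0232), a difference lost when any of 9 libraries was left out (adjusted p from 0.0703 to 0.125), namely Bleomycin_CD31_620, Bleomycin_CD31_623, Bleomycin_CD31_625, Bleomycin_CD31_626, Bleomycin_CD45_617, Bleomycin_EpCAM_629, Bleomycin_EpCAM_632, Bleomycin_EpCAM_634 and Bleomycin_Negative_638. In saline libraries the same edgeR fit had not separated CD45+ from triple-negative cells for Fosl2 (0.29 ± 0.18, adjusted p = 0.132). Nor had it for Junb (-0.18 ± 0.21, adjusted p = 0.436). Jun was highest in CD31+ cells at 1529 ± 241 CPM, not separated from triple-negative cells (0.26 ± 0.17, adjusted p = 0.162). Jund lay between 415 and 543 CPM on average in all 4 fractions, lower in CD31+ than in CD45+ (-0.39 ± 0.14, adjusted p = 0.0105) and EpCAM+ cells (-0.32 ± 0.14, adjusted p = 0.0343), with the other 4 pairs not separated. In all, 43 of 54 comparisons differed in the bleomycin libraries: 9, 7, 5, 8, 7 and 7 of the 9 members over the 6 pairs of fractions in the same order as for saline, where 75.5, 76.9, 68.5, 80.7, 80.2 and 74.6% of all genes differed.

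Within the 8 groups, after each group's mean was subtracted, 6 members varied together over the 51 libraries. The Pearson r of log2 CPM for the 15 pairs of Fos, Fosb, Jun, Junb, Jund and Atf3 lay between 0.60 and 0.89, highest for Fos with Junb (r = 0.89, rho = 0.87) and lowest for Fosb with Atf3 (r = 0.60, rho = 0.63). The other 21 pairs, which involve Fosl1, Fosl2 or Batf, lay between -0.12 and 0.42, the highest being Junb with Fosl2 (r = 0.42, rho = 0.37). These 6 members were singled out after their values were seen, the libraries share animals and each pair shares its library and depth, so the values are a description. The same libraries were high for several of them: Bleomycin_CD31_626 was the highest of its group for 5 members, Bleomycin_EpCAM_634 for 6, Bleomycin_CD45_619 for 5 and Saline_EpCAM_656 for 6, while Saline_EpCAM_655 was the lowest for 8.

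**Figure D3:**
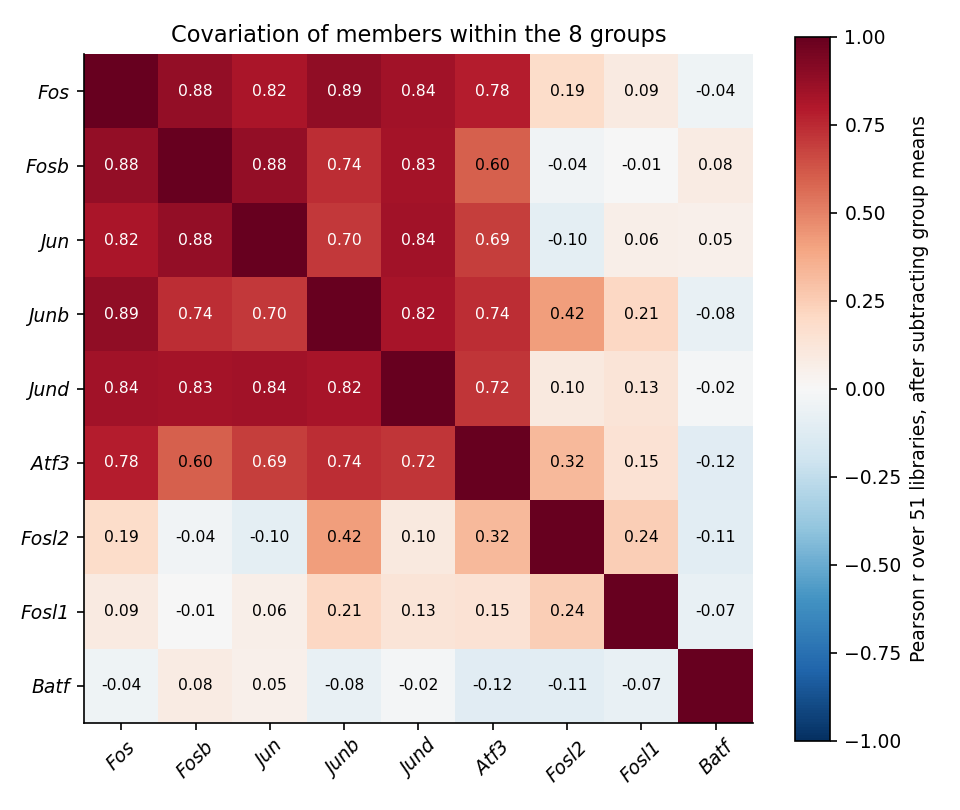
Pearson r of log2 CPM between each pair of members over the 51 libraries after subtracting the mean of each of the 8 groups. The upper left block of 6 members (Fos, Fosb, Jun, Junb, Jund, Atf3) is red, with r of 0.60 to 0.89, and the rows of Fosl2, Fosl1 and Batf are pale, with r up to 0.42.

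By the same measure, the genes most like the members were mostly other early response genes. Fos was closest to Zfp36 (r = 0.88, rho = 0.82), which encodes an RNA-binding protein that destabilises AU-rich transcripts, and to Egr1 (r = 0.87, rho = 0.83), an immediate early zinc finger factor. Junb was closest to Ier2 (r = 0.92, rho = 0.92) and Ppp1r15a (r = 0.90, rho = 0.90), which encodes the GADD34 subunit of a stress phosphatase. Atf3 was closest to Ppp1r15a (r = 0.88, rho = 0.88) and Zfp36 (r = 0.84, rho = 0.84). Among the genes like Jund was Eif1 (r = 0.81, rho = 0.80), a translation initiation factor. Fosb and Jun were both closest to Fam71a (r = 0.90 and 0.86) and then to the small nucleolar RNA Snord14e (r = 0.78 and 0.78). Fosl2 was closest to Arid5a (r = 0.84, rho = 0.78), an RNA-binding protein that stabilises inflammatory transcripts, and Csrnp1 (r = 0.78, rho = 0.73). For Fosl1 the closest were Csrp2 (r = 0.62) and Fam216a (r = 0.61), and for Batf it was Stxbp2 (r = 0.65), at lower values.

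Immediate early genes outside the AP-1 family fell along with it. Of a list of 28 such genes in the table, 16 of 27 tested were lower and 2 higher in CD31+ cells, 20 of 27 lower and 3 higher in CD45+, 22 of 28 lower and 1 higher in EpCAM+, and 23 of 28 lower and 1 higher in triple-negative cells. Of all genes tested, 24.6, 26.8, 28.9 and 27.7% were lower and 24.2, 28.4, 31.2 and 27.7% higher in the same fractions. The median log2 changes of the list were -0.69, -0.82, -1.24 and -1.28 in that order. Egr1 fell from 1724 to 381 CPM in CD31+ cells (-2.20 ± 0.26, adjusted p = 3.79e-05) and from 1644 to 336 CPM in EpCAM+ cells (-2.29 ± 0.21, adjusted p = 6.36e-07). Nr4a1, an orphan nuclear receptor induced by many acute signals, fell from 2965 to 565 CPM in CD45+ cells (-2.34 ± 0.21, adjusted p = 8.8e-07), where Fos did not pass the test, and from 3586 to 460.0 CPM in triple-negative cells (-2.95 ± 0.37, adjusted p = 2.16e-05). Ptgs2, the inducible cyclooxygenase, fell from 632.6 to 70.3 CPM in triple-negative cells (-3.15 ± 0.25, adjusted p = 5.05e-07). Against this trend, Myc rose in CD31+ cells (1.80 ± 0.19, adjusted p = 1.31e-05), and Sgk1 (1.96 ± 0.11, adjusted p = 6.55e-09) and Egr2 (0.90 ± 0.14, adjusted p = 7.94e-05) rose in CD45+ cells.

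Heat shock genes, which dissociation of tissue is also known to induce, did not move as one. Beside their list, 24.6, 26.8, 28.9 and 27.7% of all genes tested were lower in CD31+, CD45+, EpCAM+ and triple-negative cells. The shares higher were 24.2, 28.4, 31.2 and 27.7%. Of 20 on the list, all tested, the counts were 3 higher with 6 lower among 20 (CD31+ cells), 5 higher with 5 lower among 20 (CD45+ cells), 4 higher with 4 lower among 20 (EpCAM+ cells), 3 higher with 8 lower among 20 (triple-negative cells), with medians of 0.056, -0.15, 0.034 and -0.09 on the log2 scale. Their summed level overlapped between treatments in every fraction, for example 4919 to 6471 CPM in saline and 3744 to 5705 CPM in bleomycin triple-negative libraries, where the summed AP-1 members were 17032 to 23230.5 and 4023 to 8852 CPM. The inducible HSP70 genes did fall with the AP-1 genes in 3 fractions: Hspa1a by 1.88 ± 0.49 in CD31+ (adjusted p = 0.00795), by 1.99 ± 0.50 in CD45+ (adjusted p = 0.00455) and by 1.48 ± 0.38 in triple-negative cells (adjusted p = 0.00491). In EpCAM+ cells Hspa1a was 195 CPM in saline and 105 CPM in bleomycin libraries (-0.89 ± 0.48, adjusted p = 0.128). Hspa1a and its near-identical copy Hspa1b share reads, so their values are uncertain. Chordc1, an HSP90 cochaperone, rose in all 4 fractions, by 0.49 to 0.58. The part of handling before lysis in the lower AP-1 level was not tested: the sources used here give neither the time from animal to lysis nor the order of the sorts.

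**Figure D4:**
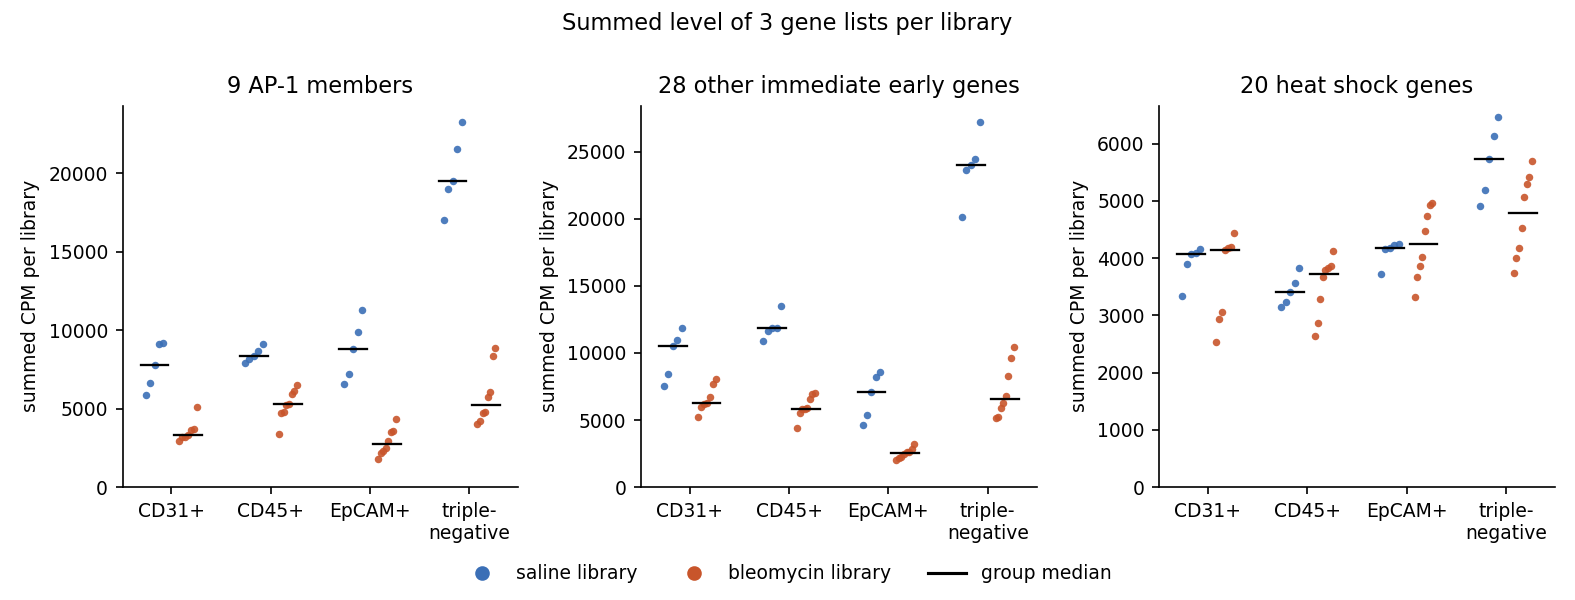
Summed CPM per library of the 9 AP-1 members (left), 28 other immediate early genes (middle) and 20 heat shock genes (right), by fraction, with saline libraries in blue, bleomycin libraries in orange and group medians as black lines. Axes start at 0; the bleomycin points lie below the saline points for the AP-1 members in all 4 fractions, and overlap them for the heat shock genes.

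Upstream of AP-1, the MAP kinases, their activating kinases and the SRF and ELK factors that switch on Fos had small median changes. Among the genes of that route tested, the counts were 5 higher with 6 lower among 24 (CD31+ cells), 8 higher with 8 lower among 24 (CD45+ cells), 3 higher with 15 lower among 24 (EpCAM+ cells), 5 higher with 8 lower among 25 (triple-negative cells), with medians between -0.22 and 0.011. The largest fall was that of Map3k8, a kinase that relays inflammatory signals, in triple-negative cells (-1.47 ± 0.13, adjusted p = 8.57e-07). The feedback genes that end MAP kinase signals or degrade early transcripts were lower for 12 of 17 in CD45+, 12 of 17 in EpCAM+ and 10 of 17 in triple-negative cells, with 0, 0 and 4 higher, while CD31+ cells had 7 lower and 6 higher. Beside both lists, 24.6, 26.8, 28.9 and 27.7% of all genes tested were lower in CD31+, CD45+, EpCAM+ and triple-negative cells. Those higher were 24.2, 28.4, 31.2 and 27.7%. Zfp36 fell from 3734 to 786 CPM in triple-negative cells (-2.23 ± 0.21, adjusted p = 1.18e-06), and Dusp10, a phosphatase of JNK and p38, fell from 87.7 to 16.2 CPM in CD45+ cells (-2.39 ± 0.21, adjusted p = 6.9e-07). Spry4, an inhibitor of receptor tyrosine kinase signals, rose in CD31+ (1.46 ± 0.25, adjusted p = 0.000486) and triple-negative cells (0.88 ± 0.13, adjusted p = 6.51e-05).

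Other bZIP factors that can pair with AP-1 proteins were balanced in CD31+ cells, with 5 higher and 5 lower among 20. In the other fractions more were lower than higher. The counts were 2 higher with 9 lower among 20 in CD45+ cells and 2 higher with 10 lower among 19 in EpCAM+ cells. Triple-negative cells had 3 higher with 10 lower among 20. Over all genes tested, 24.2, 28.4, 31.2 and 27.7% were higher and 24.6, 26.8, 28.9 and 27.7% lower in the same order. Batf3, a relative of Batf needed for some dendritic cells, rose in CD31+ (2.13 ± 0.52, adjusted p = 0.00436), CD45+ (0.68 ± 0.16, adjusted p = 0.0027) and triple-negative cells (2.57 ± 0.23, adjusted p = 8.05e-07). In CD45+ cells the repressors Crem (-1.89 ± 0.16, adjusted p = 2.57e-07) and Jdp2 (-1.51 ± 0.20, adjusted p = 3.09e-05) fell with Fosl1 and Fosl2. The small Maf gene Maff fell in EpCAM+ (-1.04 ± 0.20, adjusted p = 0.000461) and triple-negative cells (-1.37 ± 0.093, adjusted p = 1.55e-07), and the large Maf gene Maf rose in CD31+ cells (2.77 ± 0.31, adjusted p = 2.41e-05).

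The make-up of the sorted cells moved with treatment as well. Its part in the AP-1 changes was not tested beyond the covariate fits given above, which cannot separate it from treatment. Beside the marker counts that follow, 24.2, 28.4, 31.2 and 27.7% of all genes tested were higher in CD31+, CD45+, EpCAM+ and triple-negative cells. The shares lower were 24.6, 26.8, 28.9 and 27.7%. In CD45+ libraries all 12 macrophage markers were higher (summed 1333 to 3290.3 CPM in saline, 6117 to 9134 CPM in bleomycin), while 10 of 10 NK cell, 9 of 10 T cell, 10 of 10 B cell, 6 of 12 neutrophil and 11 of 12 endothelial markers were lower. In the same libraries 7 of 10 dendritic cell markers were higher and 2 lower. The summed neutrophil markers were 2276 to 4249 CPM in saline and 654.3 to 3248 CPM in bleomycin CD45+ libraries, and the NK cell markers 773 to 1010.0 and 140.1 to 343 CPM. In CD31+ libraries 9 of 12 leukocyte and 7 of 12 macrophage markers were higher and 6 of 7 platelet markers lower. In EpCAM+ libraries 8 of 9 dendritic cell markers were lower and 1, Bst2, was higher (log2 1.25). Their summed level overlapped between treatments, at 44.5 to 79.1 CPM in saline and 59.1 to 80.1 CPM in bleomycin libraries. Of other markers there, 7 of 12 macrophage markers were higher and 8 of 12 endothelial markers lower. In triple-negative libraries 10 of 10 B cell markers were lower (summed 39.1 to 132 CPM in saline, 5.04 to 14.2 CPM in bleomycin). The share of counts on mitochondrial genes was 0.26 to 0.474% in saline and 0.512 to 1.23% in bleomycin triple-negative libraries, and 0.312 to 0.401% and 0.486 to 0.689% in CD31+ libraries. It overlapped between treatments in CD45+ and EpCAM+ libraries.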

How the data were processed

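Total RNA from sorted lung cells was made into stranded libraries (TruSeq Stranded Total RNA), per the labels' protocols. The authors deposited raw read counts per Entrez gene for 51 libraries; the genome build was GRCm38 per the submitters' processing notes, and those notes and labels name no aligner, counter, annotation or strand setting. Each library's own count file was identical to its column in the whole table. Symbols came from RefSeq for 31049 identifiers and GENCODE for 78; the 5401 others held 1.58% of counts and stayed in library sizes and tests. Member coordinates are from RefSeq (GRCm38), and promoters from RefSeq (GRCm38.p6). Strands, exon lengths and overlapping genes of the members are from GENCODE.

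Within each fraction, genes passing edgeR's filterByExpr were fitted with the robust quasi-likelihood test (edgeR 4.0.16, R 4.3.3, TMM factors, two-sided), with Benjamini-Hochberg adjustment over all genes tested; adjusted p under 0.05 was called. A further model over all 8 groups gave the interactions and the differences between fractions. SE is the log2 fold change over the root of the F statistic. RPKM divides CPM by the union exon length. Likeness used log2 CPM with a prior count of 2. Alternatives were relative log expression and upper quartile factors, no low-count filter, DESeq2 1.42.0, all groups in one fit, marker scores (leukocyte, or endothelial in CD45+, pseudocount 0.5 CPM) as covariate, the first 26 and last 25 columns of the table as covariate or alone (the labels do not say what these blocks are), and leaving out each library. The fits were tested on simulated data. Named genes were all members, the 2 genes most like each member, and the 3 largest rises and falls past the threshold per list and fraction, of which the text gives a selection; 2 of the genes like a member are not reported here; members and lists were chosen with earlier results of these data known. All 9 members passed the filter in every fraction. The labels tie no library to an animal, so p-values measure the spread between these libraries, and libraries of different fractions, which share animals, were treated as independent.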

Additional observations from a re-analysis of the deposited data

Results flagged for a closer look

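Among 72 member and group combinations, 6 had a highest library far from the rest, by a gap that chance gives in about 5% of groups. The library Bleomycin_CD31_626 was high for 3 members at once: Fos at 776 CPM against 318 to 480.3 CPM in the others, Fosb at 672 CPM against 215 to 399 CPM in the others and Junb at 859 CPM against 449 to 611 CPM in the others. Without it the CD31+ log2 changes were -1.45 for Fos, -2.18 for Fosb and -1.15 for Junb. Its summed leukocyte markers were the lowest of the bleomycin CD31+ libraries. Fosl2 was 409.9 CPM against 259 to 321 CPM in the others in Bleomycin_Negative_638. Junb was 3534 CPM against 2604 to 2866 CPM in the others in Saline_CD45_647. Batf was 6.33 CPM against 3.52 to 4.67 CPM in the others in Bleomycin_EpCAM_635.

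The effect of bleomycin differed between the 4 fractions for every member (edgeR's F test over the interaction terms, Benjamini-Hochberg adjusted over all genes): adjusted p was 8.75e-06 for Fos, 0.00537 for Fosb, 6.29e-07 for Fosl1, 1.89e-09 for Fosl2, 2.46e-05 for Jun, 0.0155 for Junb, 0.00318 for Jund, 4.33e-05 for Atf3 and 6.35e-06 for Batf. Log2 changes from the lowest to the highest fraction ran from -1.64 to 0.24 for Fosl2 and from -1.77 to -0.88 for Junb.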

How the results depend on the processing

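Relative log expression factors and DESeq2 left every member effect on its side of the threshold. The count of members whose effect differed between fractions stayed at 9 in each alternative run, and members lower stayed at 7 in CD31+ and EpCAM+ and 8 in triple-negative cells when single libraries were left out, and at 5 to 7 in CD45+ cells. Members higher in CD31+ cells went from 1 to 0 with the leukocyte score as covariate and in the second column block alone, and in CD45+ cells from 1 to 0 with all 8 groups in one fit and in the first block alone. In triple-negative cells members higher ranged from 0 to 1 over the left-out libraries; without Saline_Negative_661 Batf was 0.97 (adjusted p = 0.0142).

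Directions turned only for values that did not pass the test. Fos in CD45+ cells was -0.018 with upper quartile factors, -0.012 with all groups in one fit, -0.038 in the second block and -0.043 to 0.11 over left-out libraries. Fosl1 in EpCAM+ cells was 0.27 in the second block and -0.28 to 0.12 over left-out libraries. Fosl1 between EpCAM+ and CD31+ cells after bleomycin was -0.012 without the filter. Over left-out libraries that difference was -0.15 to 0.047; Jund between EpCAM+ and triple-negative cells after bleomycin was -0.042 to 0.12; Batf between CD31+ and triple-negative cells after bleomycin was -0.038 to 0.44; in saline, Fosb between EpCAM+ and CD31+ was -0.10 to 0.15 and Fosl1 between EpCAM+ and CD45+ -0.055 to 0.35.

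Calls were lost without a change of direction, with these adjusted p-values. In CD45+ cells, Jun was lost without the filter (0.0643), in one fit (0.0504), with the block (0.0517) or the endothelial score (0.611) as covariate and in the first block (0.763). Fosb was lost there without the filter (0.0721), in one fit (0.115), with the endothelial score (0.243) and in the first (0.358) and second block (0.0748), and Batf in one fit (0.0928) and in the first block (0.0751). In CD31+ cells, Fosl1 was lost in one fit (0.115) and in the first (0.0586) and second block (0.0903), Jund with the leukocyte score (0.217) and in the first (0.153) and second block (0.106), and Batf with the leukocyte score (0.441) and in the second block (0.35). Between triple-negative and CD31+ cells, DESeq2 also separated Jund and Atf3 after bleomycin and Batf in saline, and relative log expression factors Jund after bleomycin. The blocks alone have fewer samples. The leukocyte score in CD31+ and the endothelial score in CD45+ cells moved with treatment, so those fits cannot separate score from treatment. No paired analysis was possible because the groups share no replicate numbers. Depth limits Batf in CD31+ and triple-negative cells, at 5 to 65 counts per library.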

Other observations

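Genes known as AP-1 targets were counted beside the family: 17 higher and 4 lower of 27 tested in CD31+ cells, 12 and 6 of 27 in CD45+, 16 and 3 of 28 in EpCAM+ and 19 and 5 of 28 in triple-negative cells, with median log2 changes of 0.84, 0.86, 0.67 and 0.996. Over all genes tested, 24.2, 28.4, 31.2 and 27.7% were higher and 24.6, 26.8, 28.9 and 27.7% lower in the same order. The targets that rose were led by matrix and injury genes. Spp1, the secreted glycoprotein osteopontin, rose from 18.8 to 4823 CPM in CD45+ cells (8.05 ± 0.31, adjusted p = 5.54e-10, edgeR) and from 83.1 to 3304 CPM in triple-negative cells (5.33 ± 0.58, adjusted p = 6.55e-06). The membrane metalloprotease gene Mmp14 rose from 19 to 193 CPM in CD45+ cells (3.40 ± 0.14, adjusted p = 4.58e-10). The cytokine gene Il6 fell in all 4 fractions, as did Fosb, Jun, Junb, Jund and Atf3 among the members. In triple-negative cells Il6 fell from 156 to 12.9 CPM (-3.58 ± 0.36, adjusted p = 3.42e-06, edgeR). The neutrophil chemokine gene Cxcl1 fell there from 438 to 44 CPM (-3.29 ± 0.24, adjusted p = 3.12e-07, edgeR). Many other factors also regulate these genes, and AP-1 binding was not measured.

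Fam71a, the gene closest to Fosb and Jun within groups, lies at chr1:191162584-191164817, 5479 bases from Atf3 at chr1:191170296-191183333 (GRCm38). Ier2, closest to Junb, lies 314057 bases from Junb on the same chromosome. Over the 8 group means, a measure with 8 points, the closest genes were Gm33023 and Cxcl1 for Fos, Gm13547 and Cdadc1 for Jun and Ankrd61 and Pnrc1 for Atf3, with r between 0.94 and 0.98.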
